A study of Mus musculus with 6 samples.

Results

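The Slc22 genes described here are Slc22a5, Slc22a7, Slc22a18, Slc22a27 and Slc22a29, 5 members of the organic ion transporter family of solute carriers. They were taken as every probe set whose platform symbol is one of these names, which gave 6 probe sets (2 of Slc22a18 and 1 of each of the others) of 11778 in the table, or 5 genes of 7163. They were measured in 6 samples of total liver RNA, 3 labelled Atp7b knockout (KO903, KO904 and KO905) and 3 labelled wild type (WT4, WT5 and WT6), on 1 Affymetrix array each. The samples are called livers below, although the labels do not say outright that each came from a separate mouse. Atp7b encodes the copper-exporting ATPase whose loss causes Wilson disease, and the series title places the livers early in copper accumulation. The labels point to an earlier description of the knockout line and give no strain, sex, age or diet, and they do not say whether the mice were littermates. The values are MAS 5.0 signals on a linear scale.

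The 5 genes were chosen by their signal differences between knockout and wild type, which were already known. Every such difference, and whether it passed a threshold, is therefore a description of the values that chose the genes and supports nothing further. "Called" marks a difference where limma's adjusted p, computed over all 10620 probe sets whose mean signal reached 100, is under 0.05. All 6 probe sets of the 5 genes passed that filter, with mean signals from 383.8 to 1260.

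Slc22 proteins are membrane carriers of the major facilitator superfamily that move organic cations, anions or zwitterions across the plasma membrane. In liver and kidney they take part in the uptake and release of drugs, carnitine and metabolites. Slc22a5 encodes Octn2, the sodium-dependent high-affinity carnitine transporter that brings carnitine into cells for fatty acid oxidation. Slc22a7 encodes Oat2, an organic anion transporter of the basolateral membrane of hepatocytes. Slc22a18 is a more distant family member in the imprinted Kcnq1 domain of chromosome 7. Slc22a27 and Slc22a29 belong to a rodent cluster of organic anion transporter genes on chromosome 19, and RefSeq lists the older name Oat9 for Slc22a27.

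Start regions were available in RefSeq (build GRCm38.p6) for 4 of the 5 genes, and are shown because 3 of those 4 were higher together in the knockout while Slc22a5 was not. Each line gives the 250 bases before the listed start, 5′ to 3′ on the gene's strand. Capitals mark matches, on either strand, to the GC box GGGCGG, the TATA box TATAAA, the HNF1 core GTTAAT, the nuclear receptor core AGGTCA, the STAT palindrome TTCNNNGAA, the antioxidant response core TGACNNNGC or the metal response cores TGCACNC and TGCGCNC.
Slc22a5: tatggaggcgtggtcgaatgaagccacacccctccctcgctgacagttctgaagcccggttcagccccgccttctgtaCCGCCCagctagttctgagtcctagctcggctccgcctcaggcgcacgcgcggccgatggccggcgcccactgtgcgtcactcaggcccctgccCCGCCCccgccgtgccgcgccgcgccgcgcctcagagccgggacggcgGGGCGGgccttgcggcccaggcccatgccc
Slc22a18: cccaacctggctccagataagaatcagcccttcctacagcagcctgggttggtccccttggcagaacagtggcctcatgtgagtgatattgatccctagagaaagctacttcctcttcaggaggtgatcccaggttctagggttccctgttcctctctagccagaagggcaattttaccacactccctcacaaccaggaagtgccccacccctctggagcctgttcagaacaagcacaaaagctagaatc
Slc22a27: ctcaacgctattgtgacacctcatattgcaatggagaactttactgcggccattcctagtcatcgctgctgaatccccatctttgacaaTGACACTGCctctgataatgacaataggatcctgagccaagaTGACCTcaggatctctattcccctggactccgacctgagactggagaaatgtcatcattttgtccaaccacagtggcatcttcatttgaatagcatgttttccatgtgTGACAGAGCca
Slc22a29: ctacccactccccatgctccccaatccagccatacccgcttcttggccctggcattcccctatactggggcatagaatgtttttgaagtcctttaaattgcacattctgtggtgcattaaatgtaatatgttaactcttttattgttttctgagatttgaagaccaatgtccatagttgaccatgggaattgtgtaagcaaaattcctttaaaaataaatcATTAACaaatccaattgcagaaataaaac

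The window of Slc22a5 is chr11:53891704-53891953 on the minus strand, that of Slc22a18 chr7:143473539-143473788 on the plus strand, that of Slc22a27 chr19:7966028-7966277 on the minus strand and that of Slc22a29 chr19:8218901-8219150 on the minus strand. The Slc22a5 window was rich in G and C (73.6%, with 30 CG pairs) and held 3 GC boxes. The GC share was 52.8% for Slc22a18 (0 CG pairs), 46.0% for Slc22a27 (4 CG pairs) and 38.0% for Slc22a29 (1 CG pair). Over all 32851 RefSeq windows of this length the median was 52.4%, with quartiles of 45.2% and 61.2%. Slc22a29 held 1 HNF1 core, from 29 to 24 bases before the start. Slc22a27 held 1 nuclear receptor core and 2 antioxidant response cores, and none of the motifs overlapped. No motif searched was found in the Slc22a18 window, and neither metal response core in any of the 4. Of all windows, 32.7% held a GC box, 6.43% an HNF1 core, 14.0% a nuclear receptor core and 10.2% an antioxidant response core. The TATA box was in 12.4%, the STAT palindrome in 7.02%, and the metal response cores in 10.4% (TGCACNC) and 12.5% (TGCGCNC). A match is only a match of letters.

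Across the arrays, median signals lay between 330.8 and 342.8. The first principal component (43.1% of the variance) separated the genotypes, and the second (18.8%) set WT5 (19.8) and WT6 (-14.7) apart from the other arrays, which lay between -5.23 and 5.64. WT6 also had the highest ratio of 3' to 5' signal for actin (1.47, against 1.10 to 1.28). The Atp7b probe set itself read 219.1 ± 29.9 in knockout livers and 266.6 ± 30.1 in wild-type livers (SD, n = 3 per genotype), and whether it lies in the disrupted part of the gene is not known here, so it does not check the labels. The tissue label was borne out: all 10 hepatocyte markers were measured, and albumin (Alb) read 21282 to 27522 on the 6 arrays.

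Of the 5 genes, 4 were called higher in the knockout and 0 lower, and Slc22a5 was not called. Among all 6604 tested genes, each represented by its probe set with the highest mean signal, 2.14% were called higher and 1.8% lower. Because this contrast chose the genes, nothing is read from that excess. Their median log2 difference was 0.75, against 0.03 for all tested genes. The groups did not overlap in 5 of the 6 probe sets, each time with the knockout above, a pattern seen in 13.2% of all tested probe sets.

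**Figure D1:**
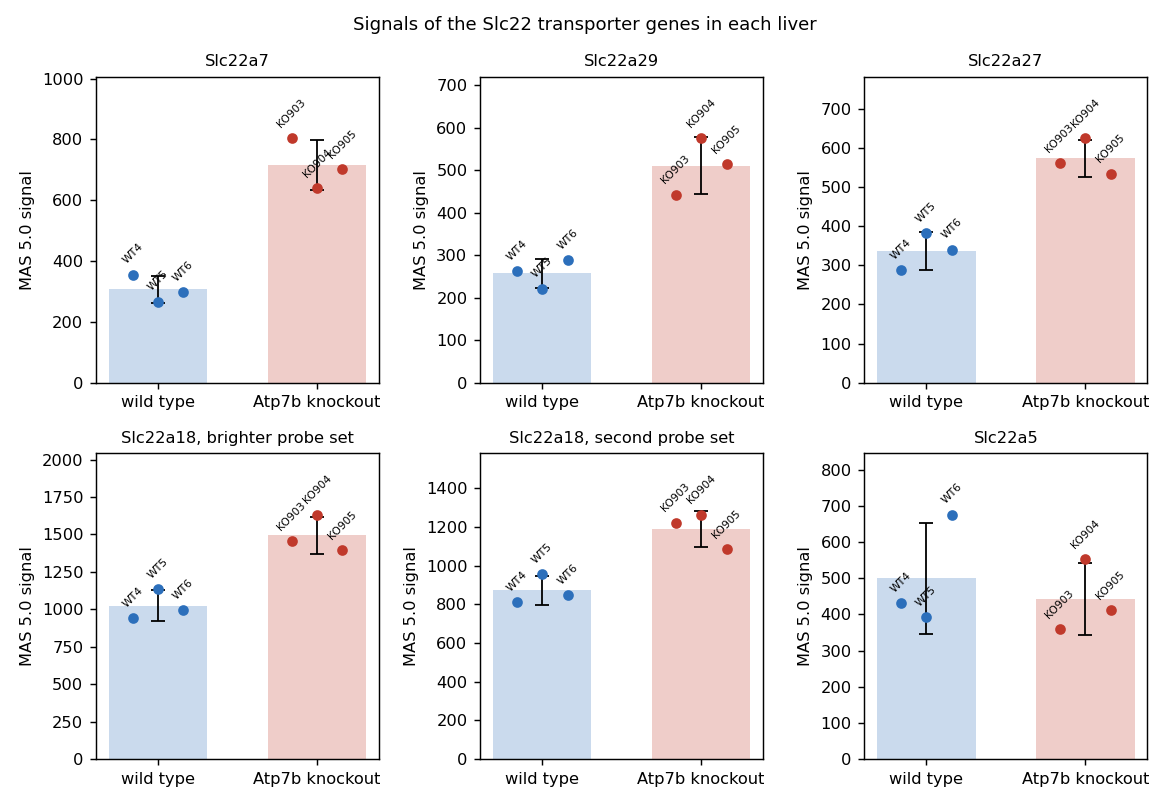
MAS 5.0 signal (linear axis from 0) of the 6 probe sets in each liver. Points are single arrays, bars are group means and error bars are SD (n = 3 per group). The knockout points lie above the wild-type points in every panel except Slc22a5, where the groups overlap.

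Slc22a7, the hepatocyte organic anion transporter gene, had the largest difference of the 5. Its signals were 804.1 in KO903, 640.0 in KO904 and 701.5 in KO905, against 355.5 in WT4, 266.7 in WT5 and 296.8 in WT6. The lowest knockout liver stood 284.5 units above the highest wild-type liver. Group means were 715.2 ± 82.9 and 306.3 ± 45.2 (SD, n = 3 per genotype), a log2 difference of 1.18 ± 0.15 (SE), or 2.27-fold on the log2(signal + 16) scale. This was the 17th largest increase among the 6604 genes. The difference stayed between 1.09 and 1.29 with any 1 array left out, and was called each time. Slc22a7 was read from 1 probe set, of the type whose probes can detect several transcripts of a gene.

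Slc22a29, from the chromosome 19 cluster, came next. Its signals were 442.6 in KO903, 575.1 in KO904 and 513.9 in KO905, and 262.1, 221.3 and 287.9 in WT4, WT5 and WT6. The groups lay 154.7 units apart, a gap wider than the SD of either group. Means were 510.5 ± 66.3 for the knockout group and 257.1 ± 33.6 for wild type (SD, n = 3 per genotype), a log2 difference of 0.95 ± 0.15 (SE) or 1.93-fold. It too was called with each array left out (log2 0.85 to 1.04).

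The identity of this signal is less sure than its size. The Slc22a29 probe set is of the type in which some probes can match other sequences, and the chromosome 19 genes are close relatives. A separate probe set, annotated to more than 1 Slc22 gene and given the same source sequence as that of Slc22a29, was named for no gene. It read 256.6, 392.8 and 312.0 in KO903, KO904 and KO905 and 153.4, 168.5 and 173.0 in WT4, WT5 and WT6, a log2 difference of 0.88 ± 0.17 (SE). The knockout livers came in the same order on both probe sets, with KO904 highest and KO903 lowest. Of the wild-type livers WT6 was highest on both, while the lowest was WT5 on the Slc22a29 probe set and WT4 on the unnamed one. How much of either signal comes from Slc22a29 was not tested.

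Slc22a27, the neighbouring organic anion transporter gene, read 561.4 in KO903, 625.8 in KO904 and 535.0 in KO905. In wild type it read 287.3 in WT4, 382.5 in WT5 and 340.6 in WT6, so that all 3 knockout livers were higher. Means of 574.1 ± 46.7 and 336.8 ± 47.7 (SD, n = 3 per genotype) gave a log2 difference of 0.75 ± 0.14 (SE), or 1.68-fold. Unlike the former ones, its call was lost without KO903 (log2 0.76), KO904 (0.69) or WT4 (0.64), although the difference itself moved little. Its single probe set is also of the cross-matching type.

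Slc22a18, from the imprinted domain, was the only gene of the 5 with 2 probe sets, and they agreed in direction. The brighter read 1455, 1633 and 1397 in KO903, KO904 and KO905 and 940.2, 1137 and 995.3 in WT4, WT5 and WT6. The other read 1224, 1265 and 1088 in the knockout and 811.4, 955.3 and 849.1 in wild type. On both, KO904 was the highest and KO905 the lowest knockout liver, WT5 was the highest and WT4 the lowest wild-type liver, and the groups did not overlap. The log2 differences were 0.54 ± 0.12 (SE; 1.45-fold), which was called, and 0.44 ± 0.12 (SE; 1.36-fold), which was not. The first call rested on all the arrays but WT5: it was lost without KO903 (log2 0.56), KO904 (0.48), KO905 (0.59), WT4 (0.48) or WT6 (0.52). It was also lost when eBayes was run without the intensity trend.

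Slc22a5, the carnitine transporter gene, showed no such separation. It read 359.6 in KO903, 553.7 in KO904 and 413.0 in KO905, and 430.4 in WT4, 393.3 in WT5 and 676.6 in WT6. Of the 6 livers WT6 was the highest and KO903 the lowest, with the others interleaved. Means were 442.1 ± 100.3 for the knockout group and 500.1 ± 154.0 for wild type (SD, n = 3 per genotype), and the log2 difference was -0.15 ± 0.21 (SE). That SE leaves room for a difference of either sign: without WT6, the array with the highest actin ratio, the value was 0.078. Its signals also spread more than those of the others, with a coefficient of variation of 22.7% in the knockout and 30.8% in wild type. The other 5 probe sets lay between 7.77% and 14.7%, and the medians over all tested probe sets were 11.0% and 11.98%.

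**Figure D2:**
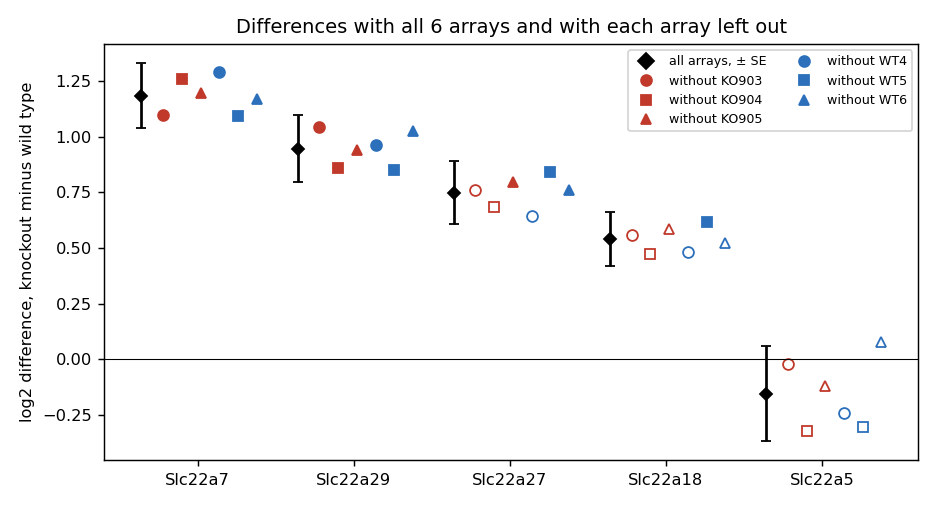
Log2 difference (knockout minus wild type, log2(signal + 16)) of the 5 genes with all arrays (diamonds, ± SE) and with 1 array left out (red, a knockout array; blue, a wild-type array). Filled symbols are called; Slc22a7 and Slc22a29 stay called throughout, while among these settings Slc22a18 keeps its call only without WT5 and Slc22a5 has none.

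The livers differed from each other in a way that the genes shared in part. Slc22a18 and Slc22a27, which lie on different chromosomes, had closely matching profiles: Pearson's r over the 6 arrays was 0.99. Among 5299 genes whose mean signal reached 200, each was among the 2 nearest of the other, beside the extracellular matrix gene Ecm1 for Slc22a18 (r = 0.998) and Cbs, the first enzyme of transsulfuration, for Slc22a27 (r = 0.99). Both genes share the step between genotypes, which raises such an r. With the group means removed, r between them was 0.95, from 6 values. Slc22a7 ran the other way within the groups, with r of -0.86 against Slc22a27 and -0.81 against Slc22a18, and Slc22a5 and Slc22a29 went together (r = 0.89). Values of 1 array share that array's RNA and scaling, and with 6 arrays these figures describe the livers only.

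For Slc22a7 the nearest profiles were those of Psmc2, a proteasome ATPase gene, and Rac1, a small GTPase gene (r = 0.99 each). For Slc22a29 they were those of Exoc4, an exocyst subunit gene, and Atp5mpl, a gene of the mitochondrial ATP synthase (r = 0.99 each). Slc22a5 was nearest to Jade1 (r = 0.98) and Man2a1, a Golgi mannosidase gene (r = 0.97). With group means removed, the nearest were Fgl1 and Srebf1 for Slc22a7, Slc7a4 and Dbh for Slc22a18, Rnf14 and Acadvl for Slc22a27, Pigs and Anxa5 for Slc22a29 (r from 0.987 to 0.999), and Cask and Hectd3 for Slc22a5 (r = 0.99 each). Among so many genes and 6 arrays, an r of this size is easily reached.

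The table held 4 further genes of the family, and limma called none of them (2 at an unadjusted p under 0.05). Slc22a26, the cluster gene before Slc22a27, had lower knockout means on both of its probe sets. The brighter read 1040, 639.7 and 759.0 in KO903, KO904 and KO905 and 1187, 914.4 and 1277 in WT4, WT5 and WT6, a log2 difference of -0.48 ± 0.18 (SE; limma adjusted p = 0.195). On the other probe set the log2 difference was -0.67 ± 0.28 (SE; limma adjusted p = 0.236). KO903 overlapped wild type on both, and without KO903 the second passed the threshold (log2 -1.02, limma adjusted p = 0.0417). Slc22a30, further along the cluster, gave a log2 difference of -0.16 ± 0.15 (SE; limma adjusted p = 0.645), with 1654 ± 204 for the knockout group and 1869 ± 387 for wild type (SD, n = 3 per genotype). Thus of the 4 cluster genes with tested probe sets, 2 were called higher and 2 were not called, with values below 0. Whether those pairs differ from each other was not tested.

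Outside the cluster, Slc22a23 read 1034, 939.3 and 887.4 in the knockout and 1128, 1122 and 1154 in wild type. Its groups did not overlap, with a log2 difference of -0.25 ± 0.11 (SE, limma adjusted p = 0.269). Over all tested probe sets, 13.2% separated with the knockout above. The share with the knockout below is not given here, so nothing is read from this separation. Slc22a17, which encodes a receptor for the iron-carrying protein lipocalin, gave 0.20 ± 0.16 (SE; limma adjusted p = 0.581), with overlapping groups.

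**Figure D3:**
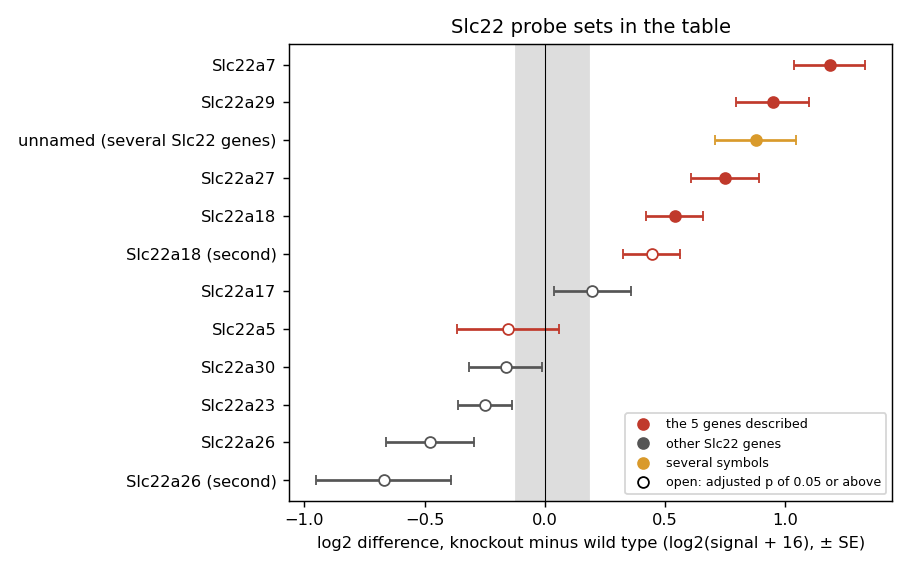
Log2 difference ± SE of the 12 Slc22 probe sets (red, the 5 genes; grey, other Slc22 genes; yellow, the probe set with several symbols). Filled points are called, and the grey band spans the quartiles of all tested genes, -0.12 to 0.18; the called points all lie to its right.

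In the RefSeq order of chromosome 19, Slc22a26, Slc22a27, Slc22a28, Slc22a29 and Slc22a30 follow each other, with pseudogenes and non-coding genes between them. Among the 5 nearest genes on either side of each gene described (45 distinct genes), 9 were tested. Slc22a27 and Slc22a29 are 2 of these 9, each a neighbour of the other and both chosen for this contrast. Of the other 7, only Dnph1 was called, where 3.94% of all tested genes were called in either direction. Dnph1, a nucleotide hydrolase gene near Slc22a7 on chromosome 17, was lower, with 68.6 ± 6.06 for the knockout group and 171.7 ± 18.6 for wild type (SD, n = 3 per genotype; log2 -1.15 ± 0.17, limma adjusted p = 0.0047). Its knockout mean lies under the minimum of 100, so it was tested only through its wild-type signal, and its call is not read as a result. Zfp318, on the other side of Slc22a7, gave -0.22 ± 0.13 (SE; limma adjusted p = 0.413). Next to Slc22a18, Nap1l4 gave -0.24 ± 0.14 (SE; limma adjusted p = 0.421) and Cars -0.01 ± 0.16 (SE; limma adjusted p = 0.982). Irf1, the interferon regulatory factor gene near Slc22a5, gave 0.29 ± 0.14 (SE; limma adjusted p = 0.319). Of 19 genes listed for the imprinted Kcnq1 and Igf2 domains, 5 were found and tested under their listed names. Limma called none of these 5 (2 at an unadjusted p under 0.05), and their median log2 difference was -0.03. Cars was listed there as Cars1 and is in neither the count nor the median.

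Related groups of genes were set beside the transporters. Among all tested genes, 2.14% were called higher and 1.8% lower, and no list was tested against these shares. Among other hepatic carriers of organic ions, 14 of 25 listed genes were tested, and 1 was called higher and 1 lower, with a median log2 difference of -0.03. Slc10a1, the sodium-dependent bile acid uptake carrier, fell from 9951 ± 522 to 7133 ± 181 (SD, n = 3 per genotype; log2 -0.48 ± 0.09, limma adjusted p = 0.013). Abcg2, an efflux pump of the canalicular membrane, rose from 599.3 ± 26.5 to 929.4 ± 118.6 (SD, n = 3 per genotype; log2 0.61 ± 0.13, limma adjusted p = 0.0245). The call of Slc10a1 ended without KO904 or KO905 (limma adjusted p up to 0.0604) and that of Abcg2 without KO903, KO905, WT4 or WT6 (up to 0.0981). The 2 calls thus lie in opposite directions. At an unadjusted limma p under 0.05 there were 7 of the 14. The number called was 0 without KO905. It was 4 at a threshold of 0.10 (1 higher, 3 lower) and with the mean over probe sets of a gene (2 higher, 2 lower).

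A list for carnitine synthesis and the carnitine shuttle had 13 of 14 genes tested. It also held genes outside those 2 steps: Acadm, Acadl, Acadvl, Etfdh and Pdzk1. Limma called none (1 at an unadjusted p under 0.05), and the median log2 difference was 0.08. The smallest p was that of Cpt1a, the carnitine palmitoyltransferase of the outer mitochondrial membrane, with a log2 difference of -0.29 ± 0.10 (SE; limma adjusted p = 0.136).

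Regulators that act on hepatic transporter genes were measured by 17 of 19 listed genes, with a median log2 difference of -0.24. Of these 17, 0 were called higher and 3 lower, where 2.14% and 1.8% of all tested genes were. Ppara, a fatty acid sensing nuclear receptor, read 1233, 1390 and 1067 in KO903, KO904 and KO905 and 2380, 2374 and 3250 in WT4, WT5 and WT6. It fell by 1.10 on the log2 scale (SE 0.15, limma adjusted p = 0.00258), a call kept with each array left out. The aryl hydrocarbon receptor gene Ahr (log2 -0.59 ± 0.14, limma adjusted p = 0.0404) and the bile acid receptor gene Nr1h4 (log2 -0.52 ± 0.13, limma adjusted p = 0.0468) also fell. Both calls ended when any array but WT5 was left out (limma adjusted p up to 0.139 and 0.147). Hnf4a, a central hepatocyte regulator, gave -0.21 ± 0.10 (SE; limma adjusted p = 0.282). In the growth hormone axis, 1 of 8 tested genes was called: Igfals, of the circulating IGF complex, fell (log2 -0.51 ± 0.12, limma adjusted p = 0.0359), again not with KO903, KO904, KO905, WT4 or WT6 left out (up to 0.133). The list median was -0.19.

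**Figure D4:**
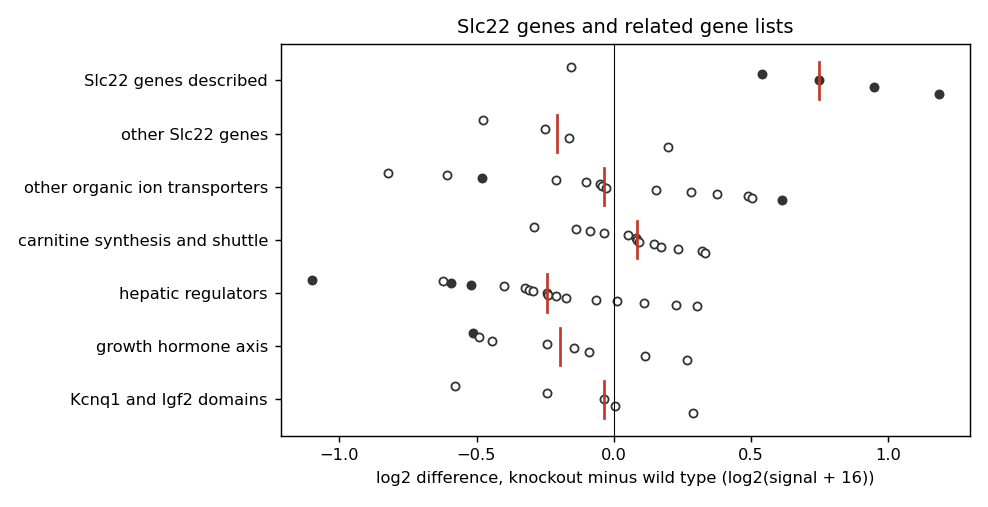
Log2 differences of single genes in 7 groups (filled, called; red bar, group median). The 5 Slc22 genes have a median of 0.75, and the other groups have medians between -0.24 and 0.08.

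Several values moved with genotype beside these genes, and their part in the Slc22 differences was not tested. In whole liver, more RNA per cell and more cells of a type cannot be told apart. The marker calls below stand beside 2.14% called higher and 1.8% called lower over all tested genes. No list was tested against these shares. For an unadjusted p under 0.05, or for sums that do not overlap, no share over all genes is given here. Alas2, the erythroid form of the first enzyme of heme synthesis and the single tested marker of 7 listed for red cell precursors, rose from 377.2, 417.7 and 398.8 in WT4, WT5 and WT6 to 894.0, 834.9 and 714.0 in KO903, KO904 and KO905. The log2 difference was 0.999 ± 0.13 (SE; limma adjusted p = 0.00183), and the call was kept with each array left out. All 9 tested Kupffer cell and macrophage markers had log2 differences above 0, and limma called none (4 at an unadjusted p under 0.05). Their summed signal was 6142 to 8248 in the knockout and 4446 to 6239 in wild type. Of 9 endothelial markers 8 were above 0 with none called by limma (4 at an unadjusted p under 0.05), and the sums, 3204 to 3709 against 2724 to 3078, did not overlap. Hepatocyte marker sums overlapped (178186 to 204191 in the knockout, 182444 to 226460 in wild type), with none of 10 called by limma (1 at an unadjusted p under 0.05). Of 5 stellate markers Rgs5 was called higher (log2 0.71 ± 0.15, limma adjusted p = 0.0251), a call lost without KO903, KO904 or WT6 (up to 0.11), and the sums overlapped (6206 to 7292 against 5210 to 6980). The single tested cholangiocyte marker, Tm4sf4, was not called (sums of 904.8 to 1192 and 925.7 to 1234), nor were the 2 lymphocyte markers (311.5 to 331.6 against 233.0 to 295.2) or the 3 kidney tubule markers (1343 to 1635 against 1194 to 1317). Neither the lymphocyte nor the kidney tubule sums overlapped, and each of these lists had 1 gene at an unadjusted limma p under 0.05. For the kidney tubule list this was Aqp1, with means of 1129 in the knockout and 928.1 in wild type. The groups overlapped for Kap (log2 -0.01) and Slc5a2 (log2 0.09), so the tubule markers did not rise as a set. No marker read 0 on any array.

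The sex of the mice is not given, and many hepatic transporter and cytochrome P450 genes differ between the sexes. Xist, which is transcribed from the inactive X chromosome, read 3617 to 4284 in the knockout and 2942 to 4048 in wild type on its brightest probe set, with overlapping groups. On every array of both groups it thus lay far above the array median (330.8 to 342.8), and no array lacked the Xist signal. The sex of the samples was not tested further. No Y-linked gene of the list was tested. The calls below stand beside shares of 2.14% called higher and 1.8% called lower over all tested genes. Of 6 tested male-predominant genes, Cyp7b1 (log2 1.33 ± 0.20, limma adjusted p = 0.00487) and Cyp2d9 (log2 1.02 ± 0.16, limma adjusted p = 0.00625) rose, with a list median of 0.37. Of these 6 genes, 4 had log2 differences above 0 and 2 below 0. Of 10 female-predominant genes, Prom1 rose (log2 1.12 ± 0.19, limma adjusted p = 0.00828) and Acot3 fell (log2 -1.09 ± 0.27, limma adjusted p = 0.0453), with a median of 0.01. The call of Acot3 ended when any array but WT5 was left out (limma adjusted p up to 0.156), and the other 3 calls were kept.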

How the data were processed

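The authors deposited intensity values on a linear scale, 1 column per array. Per the labels these are MAS 5.0 signals, scaled globally, array by array, to an average of 350, and MAS5 is also the tool in the submitters' processing notes. The choice of the 11811 probe sets in the table is not stated. Genotypes came from the sample titles. The labels do not say outright that samples are separate animals, so spreads are those between samples.

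The 33 control probe sets and 1158 with a mean signal under 100 were left out. Signals were taken as log2(signal + 16), which understates changes of low signals, and fitted with limma 3.58.1 in R 4.3.3 (lmFit, eBayes with trend, two-sided, Benjamini-Hochberg over 10620 probe sets); the scripts were tested on simulated data. Figures used matplotlib 3.10.9. Names came from the platform annotation (10776 probe sets with 1 symbol, 418 with several, which were not named, and 584 with none). RefSeq symbols of GRCm38.p6 were matched through the gene identifiers of 10762 and changed 0. No exact test of 3 against 3 can go below p = 0.1.

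The genes described, the lists and the alternatives were chosen with earlier results of these data known. Named were all Slc22 genes, Atp7b, up to 4 called genes per list, neighbours that were called or nearest, and 2 nearest profiles per gene. Other genes named (Hnf4a, Cpt1a, Alb, Xist, Tm4sf4, Aqp1, Kap, Slc5a2, Cps1, Fbp1, Arg1) were singled out after their values were seen. Alternatives were quantile normalization, median centring, pseudocounts of 1 and 64, no filter or a minimum of 200, eBayes without trend or robust, array weights, a threshold of 0.10, the mean over probe sets of a gene, and leaving out each array.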

Additional observations from a re-analysis of the deposited data

How the results depend on the processing

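Slc22a7 and Slc22a29 were called under all 17 alternatives (log2 1.07 to 1.29 and 0.84 to 1.04). Slc22a27 was called in all but 3 of 17 and Slc22a18 in all but 6, and the direction of both held in every one. Slc22a5 was never called, and its log2 difference, -0.15, lay between -0.32 (without KO904) and 0.078 (without WT6), the only change of sign among the 5 genes. The count of called genes among the 5 was 2 to 4 with 1 array left out, and 3 without the trend. No alternative called any of the 4 other Slc22 genes (0 with each array left out) on the probe set that stands for the gene. The count of called probe sets over the whole table, 440, was 175 to 475 with 1 array left out (lowest without KO904) and 786 at a threshold of 0.10. Over the fixed pathway lists together, 14 genes were called (5 higher and 9 lower), 5 to 14 with 1 array left out and 5 without the trend. The numbers tested are given where each list is described. Of all 6604 tested genes, 3.94% were called in either direction. The lists were chosen with earlier results of these data known, so nothing is read from that count. The fits with 1 array left out also had fewer arrays, and the cause of the lower counts was not tested. The number of arrays limits the precision, and no background or detection call was used, so how far a low signal stands above background is unknown here. No paired analysis was possible because the labels give the groups no shared replicate numbers.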

Other observations

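Genes of the 2 ends of the liver lobule were read beside the transporters. Over all tested genes, 2.14% were called higher and 1.8% lower. Of 10 tested pericentral genes, the glutamine synthetase gene Glul fell (log2 -0.40 ± 0.09, limma adjusted p = 0.04), with a list median of 0.11. Of 7 tested periportal genes, the cytochrome gene Cyp2f2 (log2 -0.37 ± 0.08, limma adjusted p = 0.0332) and the urea cycle gene Asl (log2 -0.67 ± 0.16, limma adjusted p = 0.043) fell, while the histidase gene Hal rose (log2 0.56 ± 0.13, limma adjusted p = 0.0338); the median was -0.18. The calls of Glul and Cyp2f2 ended with any array left out, that of Asl with any but WT6, and that of Hal without KO903, KO904, KO905 or WT4 (limma adjusted p up to 0.134, 0.112, 0.148 and 0.128). Summed signals of the pericentral genes overlapped (44174 to 47844 in the knockout, 45064 to 47181 in wild type). Those of the periportal genes did not (63135 to 65529 against 67560 to 76455). The periportal sum is weighted toward its brightest genes, Cps1, Fbp1 and Arg1. Each of these overlapped between the groups and was not called (log2 -0.18, 0.01 and -0.08). Of the 7 periportal genes, 2 lay above 0 and 5 below.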
